A study of Mus musculus with 4 samples.

Results

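The genes described here are Pck1, G6pc, Fbp1, Khk, Pcx and Ppargc1a, which encode enzymes of glucose synthesis and fructose breakdown in the kidney and a transcriptional coactivator linked to them. They were taken by name, with earlier results of these data known, and they make up 6 of the 19609 gene rows analysed, in each of 23 clusters of nuclei and 4 mice. Single-nucleus RNA sequencing was done on kidney cortex of male mice of mixed strain. The control mouse carried the TRE-hKLF6 transgene alone, and the hKLF6 OE mouse carried it together with CAG-rtTA, so that human KLF6 (Krüppel-like factor 6) is switched on by doxycycline throughout the body and not in the tubule alone. Each genotype was studied without and after aristolochic acid I (AAI), a plant toxin that damages proximal tubule DNA. AAI was given as 1 injection of 2 mg/kg after 1 week of doxycycline diet, and kidneys were taken 24 hours later. With 1 mouse per condition there is no spread between mice, no test could be made, and every difference below describes these 4 animals. Mice without AAI are called untreated. The study's methods name the solvent DMSO as its control injection, and the library labels do not say whether these animals had it.

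Values are the mean over the nuclei of 1 cluster in 1 mouse, as counts per 10000 counts of a nucleus, and include unspliced RNA. The cluster columns carry numbers only, and names were given by the order of the study's marker sheets. Markers were then checked. Slc34a1 and Slc5a12 led in PT-S1-S2-1, Cyp7b1 and Slc7a13 in PT-S3-2, Slc12a1 in LH-AL-1, Slc12a3 in DCT, Nphs1 in Podocytes and Ptprc in Macrophage. Not all markers led where the name would place them. The mesangial Gata3 led in CD_PC and Itga8 in Macrophage, and Slc13a3 of PT-S1-S2 in PT-S3-1. Tshz2 of the descending limb led in MC, Scnn1g of principal cells in CNT and Atp6v0d2 of type A intercalated cells in IC-B-2. The endothelial Flt1, Emcn, Pecam1 and Meis2 led in EC-2 with Macrophage next. The Macrophage column thus also carried endothelial transcripts, and these markers did not bear out the name EC-1. The number of nuclei behind a column is not in the table. As a sign of it, 15.1% to 31.3% of genes stood at 0 in the normal proximal tubule columns, against 40.8% to 62.6% in the injured columns of the untreated mice. No row holds the human transgene. Mouse Klf6 averaged 0.215, 0.406, 0.137 and 0.327 in normal proximal tubule of control, control with AAI, hKLF6 OE and hKLF6 OE with AAI, and reached 7.46 and 6.68 in InjuredPT-A of the AAI-treated mice.

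The proximal tubule is, beside the liver, the site where the body makes glucose, using lactate, glutamine and glycerol. Pyruvate carboxylase (Pcx) and phosphoenolpyruvate carboxykinase (Pck1) carry carbon from pyruvate to phosphoenolpyruvate, fructose-1,6-bisphosphatase (Fbp1) acts in the middle of the path, and glucose-6-phosphatase (G6pc) releases free glucose. Ketohexokinase (Khk) starts fructose breakdown, which feeds the same path with triose carbon. Ppargc1a encodes PGC-1α, a coactivator of mitochondrial biogenesis that can also drive Pck1 and G6pc in liver.

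In GENCODE vM21 (GRCm38) all members are protein-coding. Pck1 lies at chr2:173153048-173159273 on the plus strand and G6pc at chr11:101367561-101377903 on the plus strand. Fbp1 lies at chr13:62864753-62888282 on the minus strand, Khk at chr5:30921431-30931248 on the plus strand, Pcx at chr19:4510472-4621752 on the plus strand and Ppargc1a at chr5:51454250-51567726 on the minus strand. The genes span 6.23 kb (Pck1) to 113 kb (Ppargc1a), and since unspliced reads grow in number with length, levels are compared within a gene and not between genes.

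Promoter sequence is shown for Pck1 and G6pc, because these genes differed in opposite directions between the genotypes in every cluster. KLF proteins are zinc finger factors known to bind GC boxes and CACCC boxes, while CREB, FOXO, HNF1 and nuclear receptors are known regulators of gluconeogenic genes. RefSeq windows of 250 bases before each start (build GRCm38.p6) were matched for 6 of 6 members, with a pair of windows for Pcx, and each was searched on both strands for the letters CGTCA of a CRE site, GTAAACA of a FOXO site, AGGTCA of a nuclear receptor site, GGGCGG of a GC box, CCACCC of a CACCC box and GTTAAT of an HNF1 site. The sequences below stop before the first base that GENCODE annotates as transcribed, run 5′ to 3′ on the plus strand, and carry motif matches in capitals.
Pck1, chr2:173152823-173153047, 225 bases: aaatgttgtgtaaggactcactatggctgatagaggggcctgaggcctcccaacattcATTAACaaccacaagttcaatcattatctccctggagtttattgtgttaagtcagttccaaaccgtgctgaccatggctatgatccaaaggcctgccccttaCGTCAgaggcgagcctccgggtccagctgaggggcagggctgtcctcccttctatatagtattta
G6pc, chr11:101367466-101367560, 95 bases: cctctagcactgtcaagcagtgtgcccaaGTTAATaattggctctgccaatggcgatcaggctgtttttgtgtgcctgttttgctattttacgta

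Counted from the RefSeq start, the Pck1 window held an HNF1 site at -192 to -187, a CRE site at -90 to -86 and, past the printed part, a GC box at -16 to -11. The G6pc window held an HNF1 site at -221 to -216 and, past the printed part, the reverse of the nuclear receptor site at -54 to -49, and neither a GC box nor a CACCC box. Among 32851 mouse windows of this length, 6.43% held the HNF1 site of these letters, 17.8% the CRE site, 32.7% the GC box, 28.1% the CACCC box, 14% the nuclear receptor site and 3.17% the FOXO site. A GC box was also found for Fbp1, Khk and Pcx, and a CACCC box for the same genes. The Khk window also held a CRE site at -74 to -70 and an HNF1 site at -60 to -55. For Pcx the matches lay in 1 window of the pair, and the other held none of the motifs. Of the letters searched, the Ppargc1a window held only those of the CRE site, and GTAAACA of the FOXO site was found in none of the 7 windows. Other forms of these sites were not searched, so the absence of these letters does not show that a promoter lacks such a site. These are matches of letters, and binding was not measured.

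Along the nephron, Pck1, G6pc, Fbp1 and Pcx were higher on average in normal proximal tubule than outside it, though not in each single cluster. Normal proximal tubule is PT-S1-S2-1, PT-S1-S2-2, PT-S3-1, PT-S3-2 and PT-S3-3. Averaged over the 4 mice, the mean of these 5 clusters was 2.33 times the mean of the 16 clusters outside the proximal tubule for Pck1, 2.74 times for G6pc, 2.25 times for Fbp1 and 2.54 times for Pcx. Khk was nearly flat, at 1.17 times. Ppargc1a ran the other way, at 0.409 times, with its peak in the thick ascending limb. EC-1 and DCT_CNT carried proximal tubule transcripts, and without them the ratios were 2.60, 3.15, 2.46 and 2.87 for Pck1, G6pc, Fbp1 and Pcx, 1.16 for Khk and 0.403 for Ppargc1a.

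**Figure D1:**
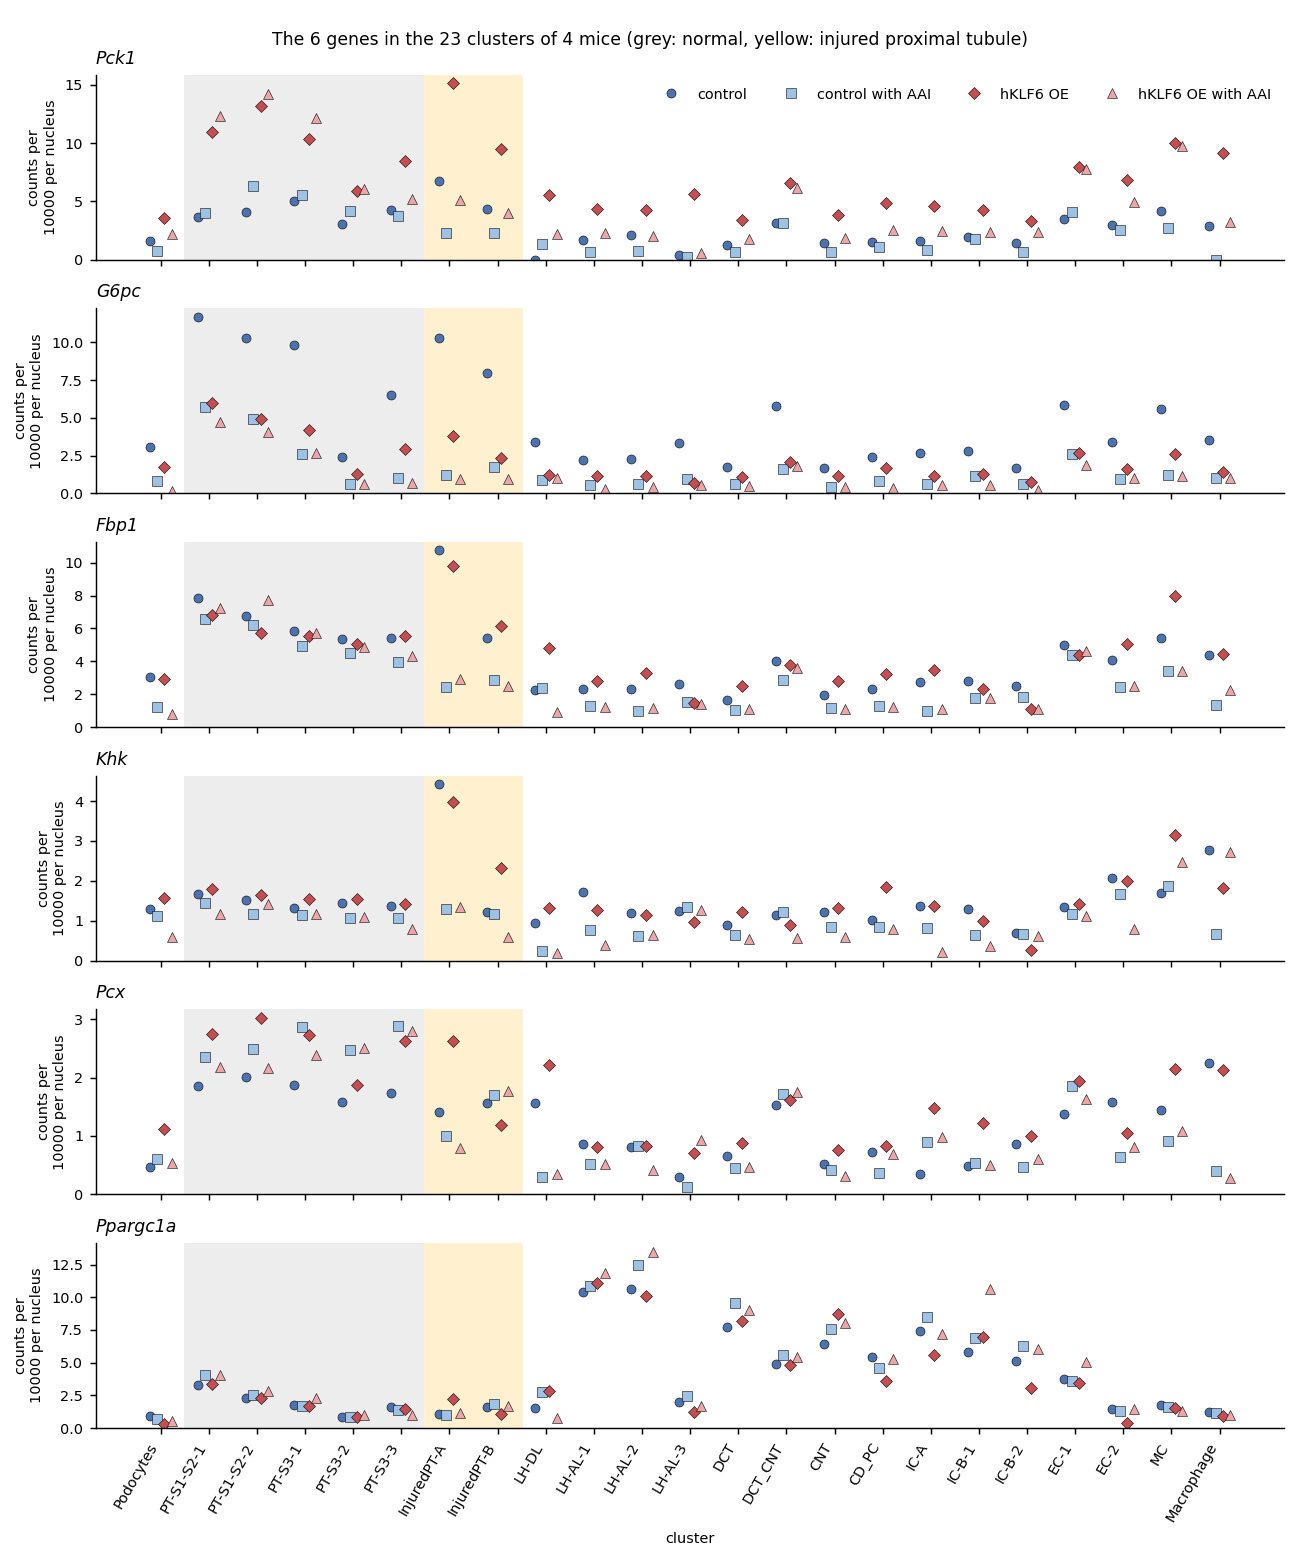
Level of each gene (vertical axis, mean counts per 10000 counts of a nucleus, linear from 0, own scale per panel) in the 23 clusters (horizontal axis), with 1 marker per mouse. Grey marks the normal and yellow the injured proximal tubule clusters. Ppargc1a stands highest in LH-AL-1 and LH-AL-2, while Pck1, G6pc, Fbp1 and Pcx stand higher in most grey than in most white columns.

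Pck1 peaked in PT-S1-S2-2, at 4.12, 6.29, 13.2 and 14.2 in control, control with AAI, hKLF6 OE and hKLF6 OE with AAI, with a mean of 9.47 ± 5.02 (SD over the 4 mice). PT-S3-1 followed with 5.01, 5.54, 10.4 and 12.2. In PT-S3-2 the mean of Pck1 was 4.81, which ranked 9 among all clusters, below MC at 6.65 and EC-1 at 5.83. The lowest mean was that of LH-AL-3, at 1.70, where hKLF6 OE held 5.60 and the other mice at most 0.537. Pck1 was listed at 0 in LH-DL of control and in Macrophage of control with AAI.

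G6pc peaked in PT-S1-S2-1, at 11.7, 5.72, 6.0 and 4.70 in the same order of mice. Within the proximal tubule it was lowest in PT-S3-2, at 2.41, 0.610, 1.29 and 0.591. The straight segment cluster with the most Cyp7b1 thus held little of it. The mean of G6pc in PT-S3-2 was 1.23, which ranked 18 among all clusters. It lay below most clusters outside the tubule, among them EC-1 at 3.27, DCT_CNT at 2.82 and MC at 2.63. G6pc was lowest of all in IC-B-2, at 1.66, 0.628, 0.729 and 0.231.

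Fbp1 was the steadiest of the proximal tubule enzymes. In PT-S1-S2-1 it stood at 7.87, 6.56, 6.83 and 7.28, a mean of 7.13 ± 0.572 (SD over the 4 mice), and in PT-S3-2 at 5.33, 4.5, 5.09 and 4.88. Its lowest mean was in DCT, at 1.56.

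Pcx varied little among the normal proximal tubule clusters, from a mean of 2.11 in PT-S3-2 to 2.51 in PT-S3-3, and was lowest in CNT at 0.509. Khk had its highest mean outside the normal tubule, in InjuredPT-A at 2.76, where the mean leans on the untreated mice with 4.43 and 3.97 against 1.29 and 1.35 with AAI. In normal proximal tubule Khk ranged only from 0.795 to 1.81 over all mice and clusters.

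Ppargc1a stood at 10.6, 12.5, 10.1 and 13.5 in LH-AL-2 and at 10.4, 10.8, 11 and 11.8 in LH-AL-1, with no overlap with any proximal tubule value. DCT followed at 7.70, 9.58, 8.21 and 9.02. In the proximal tubule it ran from 3.29, 4.06, 3.37 and 4.04 in PT-S1-S2-1 down to 0.862, 0.882, 0.852 and 0.970 in PT-S3-2. For each of the other 5 genes, all 22 neighbouring pairs in the order of cluster means overlapped in the range over mice, and for Ppargc1a 20 of 22 did.

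The proximal tubule segments were compared in the mice without AAI, where a gene was counted when its log2(value + 1) differed by at least 0.2 in the same direction in both mice and its larger value was at least 0.5. This scale understates changes of low genes. G6pc and Ppargc1a were higher in PT-S1-S2 than in PT-S3, 2 of 6 members against 14.7% of 3913 genes, and 0 of 6 were lower against 12.9%. G6pc averaged 11 and 6.25 in PT-S1-S2 and PT-S3 of control and 5.46 and 2.81 in hKLF6 OE, log2 differences of 0.72 and 0.76. For Ppargc1a the values were 2.80 and 1.43 in control and 2.85 and 1.35 in hKLF6 OE, differences of 0.64 and 0.71. Pck1 was even between segments in control, at 3.88 and 4.11, and higher in PT-S1-S2 in hKLF6 OE, at 12.1 and 8.23. Fbp1 passed in control only, with differences of 0.35 and 0.19.

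The comparison of the genotypes without AAI asks what KLF6 overexpression does before injury. In normal proximal tubule, Pck1 was 2.44 times as high in hKLF6 OE as in control and G6pc 0.476 times as high, so the enzymes at the start and at the end of the path differed in opposite directions. Both stood at the edge of all genes tested. Pck1 had the second largest rise and G6pc the fourth largest fall of 4041.

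Pck1 was 3.63, 4.12, 5.01, 3.1 and 4.23 in PT-S1-S2-1, PT-S1-S2-2, PT-S3-1, PT-S3-2 and PT-S3-3 of control, and 11, 13.2, 10.4, 5.86 and 8.45 in hKLF6 OE. The lowest cluster of hKLF6 OE was above the highest of control, although clusters of a mouse are not replicates. The means were 4.02 and 9.79, a log2 difference of 1.10, and only Tnfrsf21, a death receptor gene, rose more, from 2.04 to 5.71.

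G6pc was 11.7, 10.3, 9.84, 2.41 and 6.48 in the same clusters of control and 6.0, 4.93, 4.21, 1.29 and 2.94 in hKLF6 OE. It was lower in each cluster, with means of 8.14 and 3.87 and a log2 difference of -0.91. Clec2h, Gclc and Itgb6 alone had larger falls.

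Pcx, the mitochondrial entry step, was also higher in hKLF6 OE, at 2.60 against 1.81 (0.36). Pck1 and Pcx are 2 of 6 members higher, against 7.84% of 4041 genes, and G6pc is 1 of 6 lower, against 9.33%. Fbp1 stood at 5.74 against 6.25 (-0.10), Khk at 1.60 against 1.47 (0.07) and Ppargc1a at 1.95 against 1.98 (-0.01), none of which reached the threshold. Ppargc1a RNA was level between the mice in which Pck1 and G6pc differed, and the part of the coactivator in those differences was not tested.

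**Figure D2:**
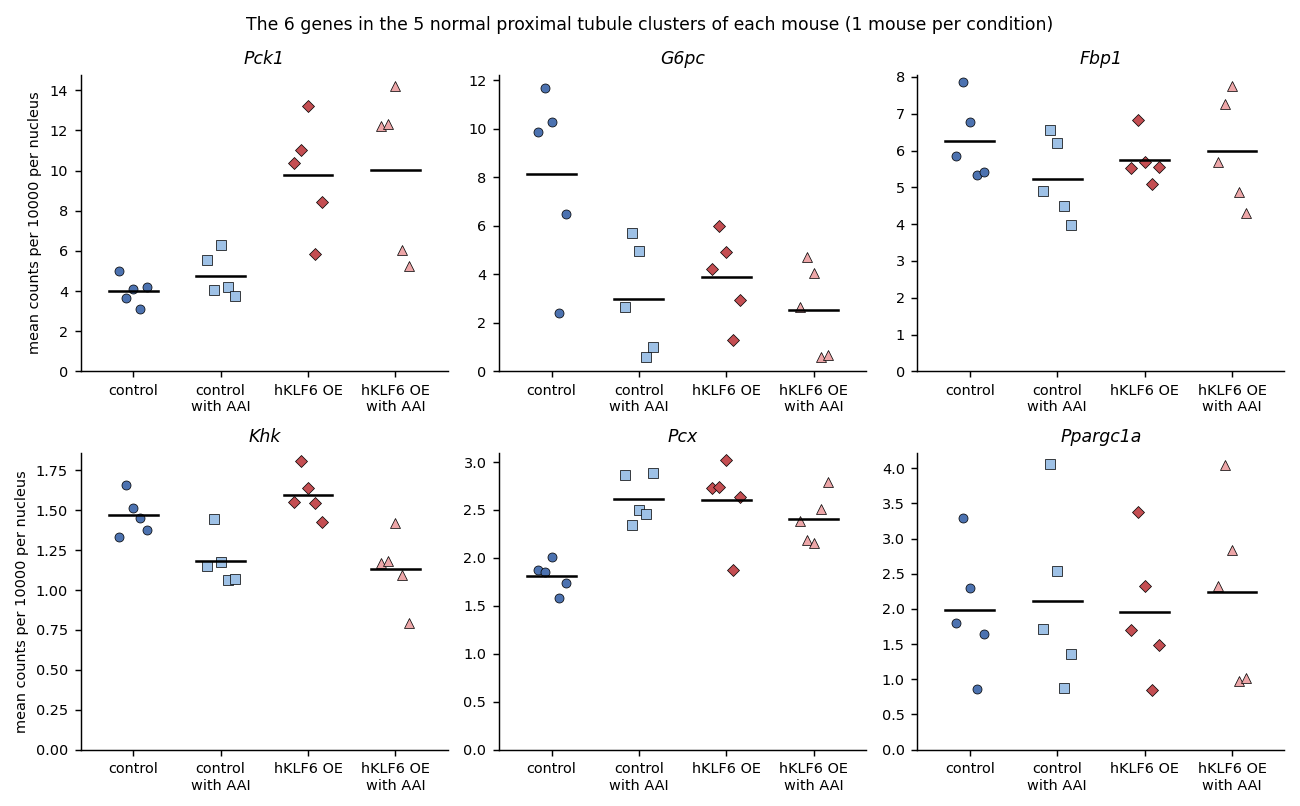
Level of each gene (vertical axis, mean counts per 10000 counts of a nucleus, linear from 0) in the 5 normal proximal tubule clusters of each mouse. Points are clusters, from left to right PT-S3-1, PT-S1-S2-1, PT-S1-S2-2, PT-S3-2 and PT-S3-3, and bars their unweighted mean. Pck1 averages 4.02 and 4.77 in the control mice and 9.79 and 10.0 in the hKLF6 OE mice, and G6pc is highest in untreated control at 8.14.

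After AAI the Pck1 difference remained and the G6pc difference did not reach the threshold. Pck1 averaged 4.77 in control with AAI and 10.0 in hKLF6 OE with AAI, 2.10 times as high (log2 difference 0.93), the third largest rise of 3942 genes after Gm42418 and Gm26917. It was 4.04, 6.29, 5.54, 4.21 and 3.78 in the clusters of the first mouse, in the order used above, and 12.3, 14.2, 12.2, 6.06 and 5.24 in those of the other. The PT-S3-2 and PT-S3-3 values of hKLF6 OE with AAI overlapped the control range, and the PT-S1-S2 values were far above it.

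G6pc averaged 2.98 and 2.54 in these mice (-0.17). Fbp1 stood at 5.23 and 5.98 (0.16), Khk at 1.18 and 1.13 (-0.03), Pcx at 2.61 and 2.40 (-0.09) and Ppargc1a at 2.11 and 2.24 (0.06). Pck1 was thus 1 of 6 members higher, against 6.32% of genes, and 0 of 6 were lower, against 7.74%. With the PT-S1-S2 clusters alone 3 of 6 passed the threshold, Pck1 and Fbp1 higher and G6pc lower, at 1.21, 0.21 and -0.23. The share of all genes in that setting is not given here.

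The Pck1 difference was seen in all 23 clusters, not in the proximal tubule alone. Without AAI, Pck1 was higher in hKLF6 OE by at least 0.2 in 23 of 23 clusters, which held for 0.272% of genes, with a range from 0.74 in PT-S3-2 to 2.72 in LH-DL, where control was listed at 0. With AAI the count was again 23 of 23, which held for 0.0507% of genes, with a range from 0.27 in IC-B-1 to 2.09 in Macrophage, where control was listed at 0. Srpk2 was the only other gene of that kind with AAI. G6pc was lower in hKLF6 OE in 23 of 23 clusters without AAI, as were 0.0742% of genes (Clec2h and Trabd2b beside it), from -1.43 in InjuredPT-B to -0.31 in CNT. With AAI it passed as lower in 12 of 23, and the share of all genes for that count is not given here.

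**Figure D3:**
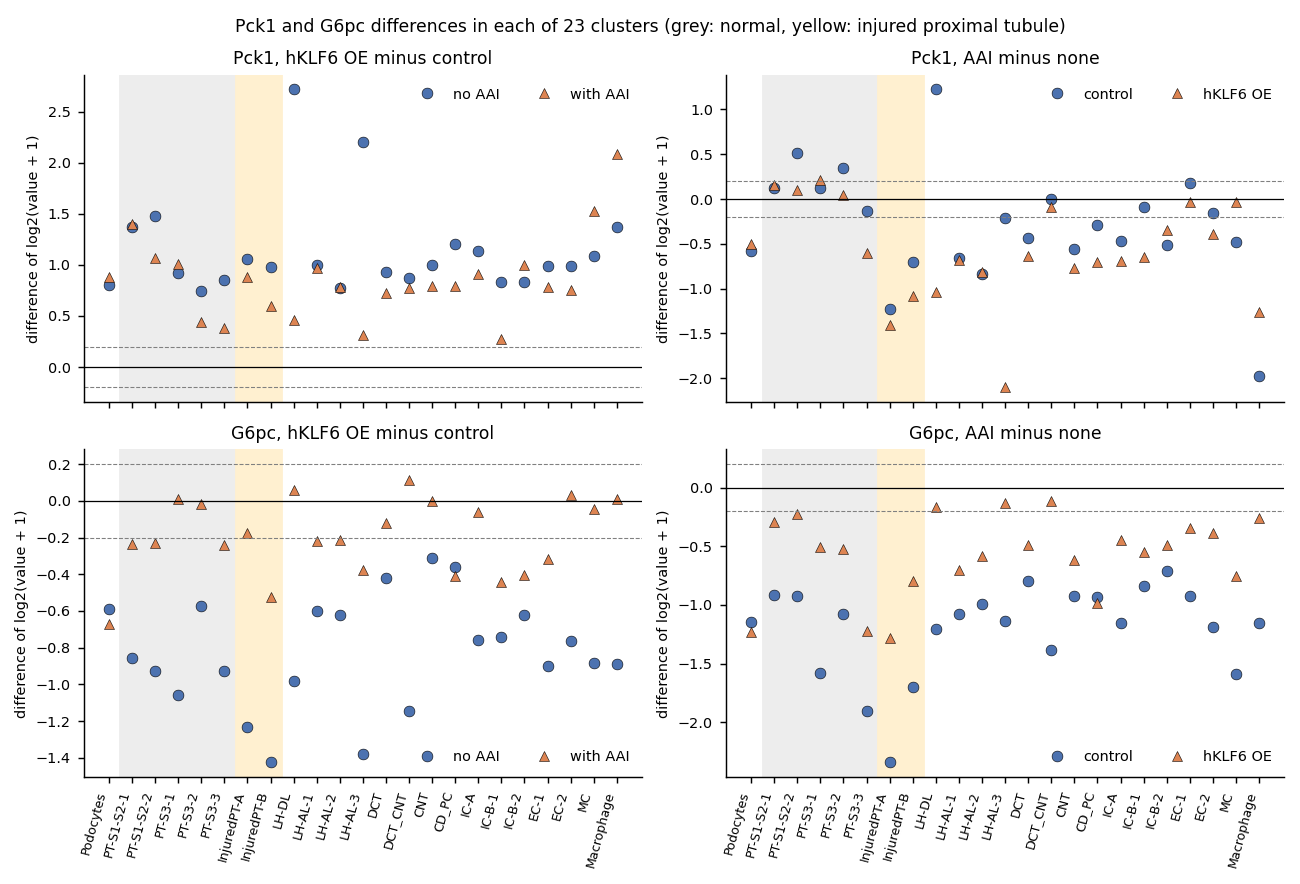
Difference of log2(value + 1) for Pck1 (top) and G6pc (bottom) in each of the 23 clusters (horizontal axis), between genotypes on the left and between AAI and none on the right. Dashed lines mark a difference of 0.2 in either direction. All Pck1 points on the left lie above 0.2, and all G6pc points without AAI on the left lie below -0.2.

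Because enzymes of the proximal tubule should be scarce in other cell types, their levels there were set beside those of transporters that mark the proximal tubule. The median over the 16 clusters outside it was 40.8%, 16.8%, 48.4% and 23.7% of the normal proximal tubule mean for Pck1 in control, control with AAI, hKLF6 OE and hKLF6 OE with AAI. For G6pc it was 36.3%, 29.4%, 32.4% and 21.5%, for Fbp1 43.0%, 26.9%, 56.8% and 20.4%, and for Pcx 46.1%, 20.4%, 41.8% and 23.6%. The phosphate transporter Slc34a1 stood at 22.8%, 26.7%, 26.8% and 19.2%, and the endocytic receptor Lrp2 at 21.5%, 16.8%, 20.5% and 12.3%. The other tubule markers Cubn and Slc4a4 stood at 19.3%, 10.8%, 15.5% and 11.5%, and at 23.9%, 19.9%, 24.3% and 19.3%. All these genes were thus found outside the tubule. The untreated mice held the larger shares of Pck1, G6pc, Fbp1 and Pcx, and also of Lrp2, Cubn and Slc4a4 but not of Slc34a1. Khk was nearly as high outside as inside in the untreated mice (85.8% and 83.0%).

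The ratio of Pck1 to G6pc was 0.494 in normal proximal tubule of control, 1.60 in control with AAI, 2.53 in hKLF6 OE and 3.94 in hKLF6 OE with AAI. The median over the clusters outside was 0.714, 1.34, 3.79 and 4.43 in the same order. Single clusters outside ranged from 0 to 0.919, from 0 to 2.69, from 2.07 to 8.31 and from 1.02 to 13.9, so the medians rank the mice as the tubule does while the clusters scatter widely. RNA set free from tubule cells can enter droplets with other nuclei. The part of such RNA in the differences outside the proximal tubule was not tested, and a gene's level in those clusters is not given here as its expression by those cells. Outside the tubule, G6pc of control was highest in EC-1, DCT_CNT and MC, at 5.88, 5.79 and 5.61, against 1.66 in CNT. EC-1 and DCT_CNT also held the lactate carrier transcript Slc5a12 that marks PT-S1-S2.

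The 11 genes higher in every cluster of hKLF6 OE without AAI included abundant tubule transcripts. Kap stood at 84.4 against 56.4 in normal proximal tubule, Gpx3 at 32.3 against 20.5, Fth1 at 19.8 against 11 and the mitochondrially encoded mt-Atp6 at 36.5 against 24.6. With AAI these were 35.5 against 47.8, 24.1 against 27.2, 11.6 against 15.5 and 10.5 against 13.5, lower in hKLF6 OE. Ftl1, Hspa8 and Mpc1 were also lower there with AAI. Pck1 was higher in hKLF6 OE in both settings, and so were Klk1, S100g and Spp1. With AAI these last stood at 1.56 against 1.26, 0.891 against 0.577 and 2.26 against 2.00. The part of the other 10 of these 11 genes in the Pck1 difference was not tested.

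Other genes of the path were read from lists. Among all genes 7.84% were higher in hKLF6 OE without AAI and 9.33% lower. Without AAI, 7 of 10 other gluconeogenic enzymes tested were higher in hKLF6 OE and 0 lower, with a median difference of 0.26 against -0.03 for all genes. Of the 7, 5 stood at 0.5 or more in both mice, and the others passed the minimum only through hKLF6 OE. The malate dehydrogenase gene Mdh1 stood at 4.81 against 3.50 and the triosephosphate isomerase gene Tpi1 at 1.74 against 1.18. Of substrate supply genes 3 of 13 were higher and 2 lower, led by the lactate dehydrogenase gene Ldhb (4.57 against 3.16) and by Slc13a1 (8.70 against 14.4), which the list holds although its product carries sulfate. Of other fructose and polyol genes 1 of 6 was higher and 1 lower (Sord, 6.99 against 8.30), and of glycolysis genes 1 of 3 was higher (Aldoa, 1.04 against 0.581).

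Among transcriptional and hormonal regulators 1 of 19 was higher and 4 were lower in hKLF6 OE without AAI, against 7.84% and 9.33% of all genes. Irs2, an adaptor of the insulin receptor, was lower, at 0.660 against 1.36, as was the glucocorticoid receptor gene Nr3c1, at 1.52 against 2.39. Of the PGC-1α-linked mitochondrial and NAD genes 1 of 8 was higher (Cycs, 0.836 against 0.493, under the minimum in control).

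With AAI the enzymes did not show the same picture. Among all genes 6.32% were higher in hKLF6 OE with AAI and 7.74% lower. Of 9 other gluconeogenic enzymes 0 were higher and 2 lower in hKLF6 OE, Tpi1 at 0.838 against 1.18 and Pgam1 at 0.599 against 0.839. Of substrate supply genes 0 of 12 were higher and 4 lower, among them the lactate carriers Slc5a12 (23.8 against 28.3) and Slc5a8. Fructose and polyol genes split 2 and 2 of 7. The fructose carrier Slc2a5, at 0.818 against 0.467, was among the higher and reached the minimum only through hKLF6 OE. Aldoa was the 1 of 2 glycolysis genes lower, 3 of 17 regulators were lower with Irs2 at 0.390 against 0.851, and 2 of 8 PGC-1α-linked genes were lower, Kynu and Sirt3. Irs2 was lower in hKLF6 OE in both settings. With AAI, Irs2 and Kynu were under the minimum in hKLF6 OE.

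The comparison of AAI with no AAI asks how cells still classed as normal proximal tubule respond to the toxin. In the control genotype G6pc fell furthest among the members, from 8.14 to 2.98, or 0.366 times as high, the fourth largest fall of 4052 genes after Gm42397, Lpl and Cntnap5a. In hKLF6 OE it was already 3.87 and stood at 2.54 after AAI, 0.657 times as high.

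In control, G6pc went from 11.7, 10.3, 9.84, 2.41 and 6.48 in the 5 clusters to 5.72, 4.94, 2.63, 0.610 and 0.997, a log2 difference of -1.20 for the means. In hKLF6 OE it went from 6.0, 4.93, 4.21, 1.29 and 2.94 to 4.70, 4.07, 2.66, 0.591 and 0.692, a difference of -0.46. All 10 cluster values were lower with AAI than without. The differences of the genotypes differed by 0.74, which was not tested with 1 mouse each. The untreated control mouse enters both the fall with AAI and the fall with hKLF6 OE, and it was the only mouse with a G6pc mean above 3.87.

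Outside these clusters G6pc was also lower with AAI. In control it was lower by at least 0.2 in 23 of 23 clusters, which held for 0.247% of genes. Among these were Slc34a1 and Ndrg1, which averaged 58.4 and 31.6 in normal proximal tubule before AAI and 30.1 and 13.9 after. In hKLF6 OE G6pc was lower in 20 of 23, as were 3.82% of genes in at least that many clusters. Slc34a1 was thus lower together with G6pc inside and outside the tubule, and the part of free RNA in this was not tested.

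Pck1 changed little with AAI in normal proximal tubule, from 4.02 to 4.77 in control (0.20, at the threshold, and 0.19 once centred on all genes) and from 9.79 to 10.0 in hKLF6 OE (0.03). Within hKLF6 OE the clusters differed, since PT-S3-1 went from 10.4 to 12.2 and PT-S3-3 from 8.45 to 5.24. Outside the tubule the median difference was -0.45 in control and -0.66 in hKLF6 OE.

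Pcx was higher with AAI in control in each of the 5 clusters, at 1.86, 2.01, 1.87, 1.58 and 1.73 without and 2.34, 2.49, 2.87, 2.46 and 2.89 with AAI (0.36 for the means). In hKLF6 OE it stood at 2.60 and 2.40 (-0.08), so untreated control was the low mouse for Pcx in both of its comparisons. Fbp1 went from 6.25 to 5.23 in control (-0.22) and from 5.74 to 5.98 in hKLF6 OE (0.05). Khk, by contrast, was lower in both, from 1.47 to 1.18 (-0.18, short of the threshold) and from 1.60 to 1.13 (-0.28). Ppargc1a moved by 0.06 and 0.14.

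In the control genotype 4 of 6 members thus passed in either direction, against 23.0% of 4052 genes. Of these, 2 were higher with AAI (Pck1 and Pcx), against 11.7%, and 2 lower (G6pc and Fbp1). In hKLF6 OE 0 of 6 were higher, against 19.5% of 4133 genes, and 2 lower (G6pc and Khk), against 15.4%. With PT-S1-S2 clusters alone, 5 of 6 passed in hKLF6 OE, all but Pck1. Of these, Fbp1 and Ppargc1a were higher and G6pc, Khk and Pcx lower, and the share of all genes in that setting is not given here.

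**Figure D4:**
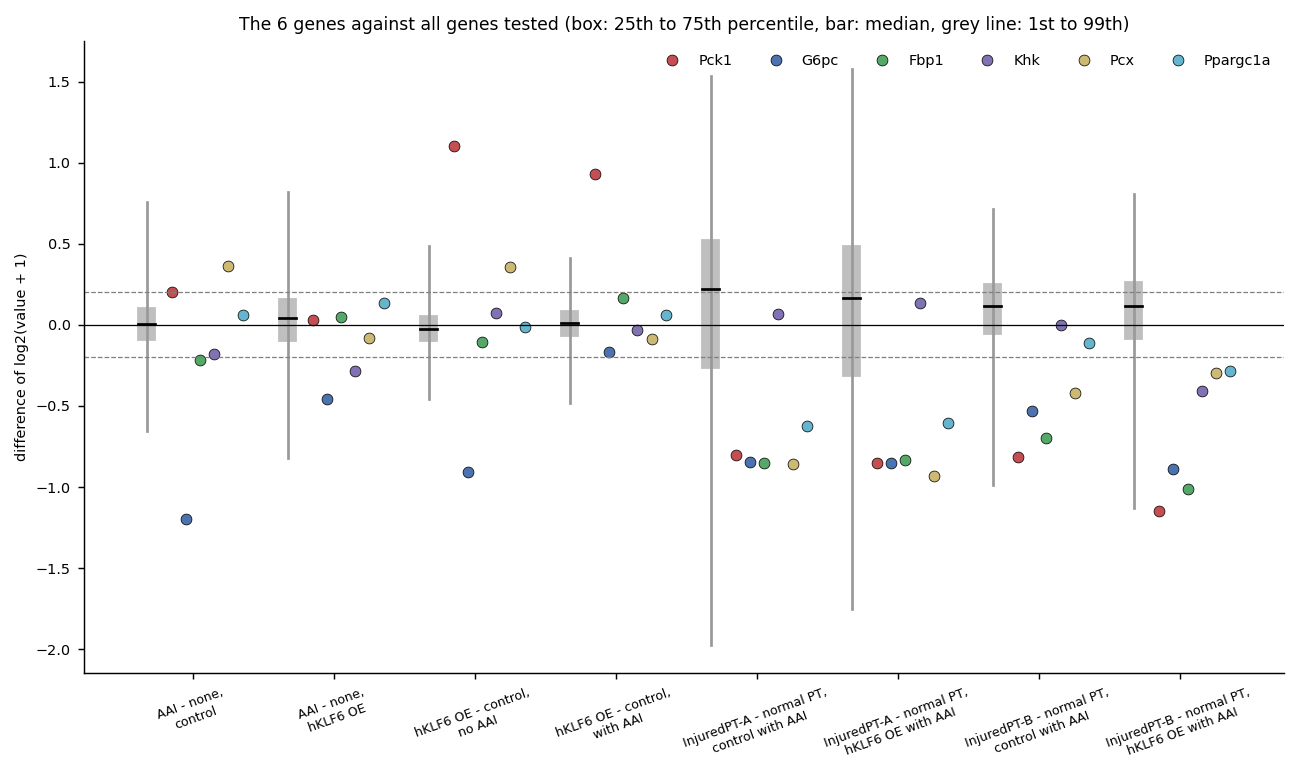
Difference of log2(value + 1) (vertical axis) of each gene in 8 comparisons (horizontal axis), beside all genes tested, for which the box spans the middle range from the lower to the upper quartile and the thin line reaches the outermost percentiles. Dashed lines mark a difference of 0.2 in either direction. Pck1 lies above the thin line in both genotype comparisons, at 1.10 and 0.93, and G6pc lies below it at -1.20 with AAI in control and at -0.91 in hKLF6 OE without AAI.

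The untreated hKLF6 OE mouse, higher than control in most other gluconeogenic enzymes, also enters its comparison with AAI. In hKLF6 OE, 5 of 10 other gluconeogenic enzymes were lower with AAI, against 15.4% of all genes, and 0 higher, against 19.5%. Their median difference was -0.19 against 0.05 for all genes. Mdh1 went from 4.81 to 2.64 and Tpi1 from 1.74 to 0.838. In control 1 of 9 was higher (Pgam1, 0.479 to 0.839, under the minimum before AAI), against 11.7% of all genes, and 0 were lower.

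With AAI, 11.7% of all genes were higher in control, and in hKLF6 OE 19.5% were higher and 15.4% lower. Substrate supply genes were higher with AAI in 5 of 12 in control and 1 was lower, and in hKLF6 OE 3 of 13 were higher and 4 lower. The sulfate carrier gene Slc13a1, counted among them, went from 14.4 to 26.7 and from 8.70 to 24.7, and the glutamate dehydrogenase gene Glud1 from 2.96 to 5.07 and from 3.55 to 4.52. Of fructose and polyol genes 1 of 6 was higher and 1 lower in control and 2 of 7 higher and 1 lower in hKLF6 OE. Of the 2 higher, 1 (Slc2a5) reached the minimum only with AAI. Slc2a2, the basolateral glucose and fructose carrier GLUT2, went from 1.05 to 1.66 in control and from 0.797 to 2.16 in hKLF6 OE. Of glycolysis genes 0 of 3 passed in control and Pdk2 and Aldoa were lower in hKLF6 OE, Pdk2 passing the minimum only without AAI.

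Regulators moved in both directions with AAI. In control 4 of 19 were higher, against 11.7% of all genes, and 5 lower, where 23.0% of all genes passed in either direction. In hKLF6 OE 6 of 17 were higher, against 19.5%, and 3 lower, against 15.4%. Of these 3, 1 (Irs2) was under the minimum with AAI. Ppara, the fatty acid receptor that drives fasting metabolism, went from 5.10 to 10.7 and from 4.92 to 8.02. Foxo3 went from 1.29 to 2.38 and from 1.39 to 2.29. Irs2 went from 1.36 to 0.851 and from 0.660 to 0.390. Of PGC-1α-linked genes 1 of 8 was higher and 3 lower in control, and 0 of 8 higher and 3 lower in hKLF6 OE. The higher gene, Kynu, was under the minimum before AAI. In hKLF6 OE 1 of the 3 lower (Cycs) was under it with AAI. The deacetylase gene Sirt3 went from 2.72 to 2.20 and from 2.85 to 1.71.

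For the injured clusters, the reference was normal proximal tubule of that same AAI-treated animal, and a call required the threshold to be passed in one direction in both AAI-treated animals. In InjuredPT-A, 5 of 6 members were lower, against 27.0% of 5008 genes, and 0 were higher, against 43.3%. Khk was the exception. Against PT-S3 alone 3 of 6 were lower, Pck1, Fbp1 and Pcx. In InjuredPT-B, 4 of 6 were lower, against 13.1% of 4148 genes, and 0 were higher, against 23.4%, and 3 of 6 were lower against PT-S3 alone. Shares of all genes against PT-S3 alone are not given here. The clusters were defined by the study on these same values, so this is a description of them.

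Pck1 was 2.31 in InjuredPT-A against 4.77 in normal tubule of control with AAI and 5.10 against 10.0 in hKLF6 OE with AAI, differences of -0.80 and -0.85. The genotype difference in Pck1 was thus still present in injured cells, at lower levels. In InjuredPT-B Pck1 was 2.28 and 3.97 (-0.81 and -1.15).

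G6pc was 1.22 and 0.965 in InjuredPT-A (-0.84 and -0.85) and 1.75 and 0.918 in InjuredPT-B (-0.53 and -0.89). Against PT-S3 alone, which holds less G6pc, the call was lost in both clusters, with differences of -0.12 and -0.24 in InjuredPT-A and 0.19 and -0.27 in InjuredPT-B. Fbp1 was 2.46 and 2.92 in InjuredPT-A (-0.85 and -0.83) and 2.84 and 2.47 in InjuredPT-B (-0.70 and -1.01). Pcx was 0.993 and 0.788 in InjuredPT-A (-0.86 and -0.93) and 1.69 and 1.77 in InjuredPT-B (-0.42 and -0.30). Pcx, Pck1 and Fbp1 were thus lower in both injured clusters with either reference from the same AAI-treated mouse. Of these references, G6pc was lower only against the mean of all normal tubule. PT-S3 itself held 1.41 and 1.32 of G6pc in the AAI-treated control and hKLF6 OE mice, against 6.25 and 2.81 in the untreated ones. Pcx in normal tubule of untreated control and hKLF6 OE was 1.81 and 2.60, so its InjuredPT-B value in control with AAI was near that of untreated control.

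Ppargc1a was 1.02 and 1.13 in InjuredPT-A (-0.62 and -0.61) and 1.87 and 1.66 in InjuredPT-B, where the difference passed only in hKLF6 OE with AAI (-0.11 and -0.29). Ppargc1a is also lower in PT-S3, and against PT-S3 alone its differences were -0.200 and -0.198 in InjuredPT-A, which ended the call, and 0.31 and 0.12 in InjuredPT-B. Khk was 1.29 and 1.35 in InjuredPT-A against 1.18 and 1.13 in normal tubule (0.07 and 0.14), and 1.18 and 0.606 in InjuredPT-B (0.00 and -0.41).

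Among the lists, other gluconeogenic enzymes did not follow the members in InjuredPT-A. There 7 of 10 were higher, against 43.3% of all genes, and 0 lower, against 27.0%. Medians were 0.41 and 0.35 against 0.19 and 0.15 for all genes counted. All 7 stood at 0.5 or more in normal tubule of both mice. These enzymes also run glycolysis. Pgam1, phosphoglycerate mutase, stood at 2.06 against 0.839 and 1.66 against 0.599, and Mdh2 at 1.61 against 0.893 and 1.60 against 0.664. In InjuredPT-B 1 of 9 was higher (Got2, 1.28 against 0.813 and 1.12 against 0.680) and 0 lower, against 23.4% and 13.1% of all genes.

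Substrate supply genes split between directions. Calls were 5 higher and 7 lower of 14 in InjuredPT-A, against 43.3% and 27.0% of all genes. In InjuredPT-B they were 1 higher and 6 lower of 12, against 23.4% and 13.1%. Of the 5 higher, 2 were under the minimum in normal tubule of at least 1 mouse. Of the lower calls, 2 in each injured cluster were under the minimum in that cluster of at least 1 mouse. The lactate carrier Slc5a12 was 4.12 against 28.3 and 5.14 against 23.8 in InjuredPT-A, and 6.30 and 6.31 in InjuredPT-B. Of fructose and polyol genes 1 of 6 was higher and 3 lower in InjuredPT-A and 0 of 6 higher and 1 lower in InjuredPT-B. Among the 3, Slc5a10 was under the minimum in InjuredPT-A of at least 1 mouse. Sord, which makes fructose from sorbitol, was lower in both clusters, at 2.58 against 7.59 and 3.05 against 6.02 in InjuredPT-A.

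Of 20 glycolysis genes only 2 reached the minimum in each injured cluster, so no count is read from this list. Aldoa was 1.21 against 0.764 and 1.74 against 0.524 in InjuredPT-A. Pdk4, a kinase that shuts pyruvate out of the citrate cycle and so spares it for glucose synthesis, was 1.66 against 0.140 and 1.44 against 0.066 in InjuredPT-A, and 0.899 and 0.545 in InjuredPT-B, and it reached the minimum only through these clusters. Regulators gave 6 higher and 8 lower calls of 21 in InjuredPT-A, against 43.3% and 27.0% of all genes. Of the 6, 4 (Irs2 among them) were under the minimum in normal tubule of at least 1 mouse. In InjuredPT-B regulators gave 2 higher and 5 lower calls of 18, against 23.4% and 13.1%. Esrrg, an orphan receptor that works with PGC-1α, was 3.17 against 40.2 and 5.28 against 40.9 in InjuredPT-A, Ppara 1.43 against 10.7 and 1.3 against 8.02, and Irs2 3.25 against 0.851 and 2.37 against 0.390. PGC-1α-linked genes gave 2 higher and 4 lower calls of 8 in InjuredPT-A, against 43.3% and 27.0%. The 2 higher were under the minimum in normal tubule of at least 1 mouse. Of the 4 lower, 3 were under it in InjuredPT-A of at least 1 mouse. In InjuredPT-B the calls were 1 higher and 3 lower of 6, against 23.4% and 13.1%. Of those 3 lower, 2 were under the minimum in InjuredPT-B of at least 1 mouse. Haao, an enzyme of NAD synthesis, was lower in both clusters and among the genes under the minimum.

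The injured columns of the untreated mice looked different. Pck1 stood there at 6.75 and 15.1 in InjuredPT-A of control and hKLF6 OE, G6pc at 10.3 and 3.79, Fbp1 at 10.8 and 9.79 and Khk at 4.43 and 3.97, at or above normal tubule for Pck1, Fbp1 and Khk. Mouse Klf6 was 0.358 and 0.250 there. These columns have 62.6% and 40.8% of genes at 0, and no comparison of injured with normal tubule rests on them. They do enter the counts over all 23 clusters between untreated mice and between AAI and none, and the r values below.

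For each member the genes of most similar pattern were taken by Pearson's r of log2(value + 1) over the 92 columns, among 11444 genes. The columns share mice and clusters, so r is a description. Pck1 was most like Fbp1 (0.754), Cyp2j5 (0.730) and Hnf4a (0.725), and these were the lowest leading values of the 6 members. G6pc was most like Slc34a1 (0.891), Ndrg1 (0.856) and Clec2h (0.849). Fbp1 followed Sord (0.920), Acsm2 (0.907) and Akr1c21 (0.889), Khk followed Cyp2e1 (0.767) and Gpx1 (0.765), and Pcx followed Hgd (0.873), Dao (0.856) and AI314278 (0.846). Ppargc1a followed Me3 (0.900), Ank3 (0.867) and Nfyc (0.866). Between members, r ran from -0.41 for Khk and Ppargc1a to 0.790 for Fbp1 and Pcx, and for Pck1 and G6pc it was 0.395.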

How the data were processed

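Nuclei of kidney cortex from 4 mice were sequenced with the 10x system, all prepared and run together as 1 technical batch. The authors counted reads with Cell Ranger against a mouse pre-mRNA reference (mm10 per the labels), left out nuclei of low quality, clustered the rest in Seurat and deposited mean signal values per cluster and mouse. No removal of doublets is described for these data. The function behind the averages is not given in the sources used here, so the unit rests on the values, since each of the 92 columns sums to 10000, on a linear scale. Of 19632 gene rows, 23 with date-like names were left out. Normal proximal tubule is the unweighted mean of 5 clusters. Differences are of log2(value + 1), a gene was tested where the larger value was at least 0.5, and the threshold was 0.2. No test was made, and the study's own tests took nuclei as replicates. The members, the 6 pathway lists with 108 genes (108 with a row), the motifs and the tests were chosen with earlier results of these data known. Named beside the members are, for each list, at most 3 genes of largest difference in each direction per comparison, and for each member the 3 genes of highest r, except some that are not reported here. Genes at the extremes of a comparison or passing in every cluster, and marker genes outside the tubule, were named after their values were seen. Each result was recomputed with a pseudocount of 0.1, without the filter or with a minimum of 2, with thresholds of 0.5 and 1, after centring, without the 13 mitochondrially encoded genes, with PT-S3 or PT-S1-S2 clusters alone, and with the untreated mouse of the same genotype as reference for injured clusters, other averages over mice and Spearman's rho. Leaving out EC-1 and DCT_CNT for the ratios along the nephron was added after the data were seen. The scripts were tested on simulated data. Python 3.11.15, numpy 2.4.6, pandas 2.3.3 and matplotlib 3.10.9 were used.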

Additional observations from a re-analysis of the deposited data

Results flagged for a closer look

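For Fbp1 and Pcx the difference with AAI in normal proximal tubule had opposite signs in the genotypes, but in hKLF6 OE it was short of the threshold of 0.2 for both. For Fbp1 the log2 difference was -0.22 in control and 0.051 in hKLF6 OE. For Pcx it was 0.36 in control and -0.080 in hKLF6 OE. With PT-S3 alone the hKLF6 OE values were -0.10 for Fbp1 and 0.06 for Pcx, the same signs as in control, and with PT-S1-S2 alone 0.23 and -0.29. Once centred on all genes, Fbp1 in hKLF6 OE was at 0.0058. Each value rests on 1 mouse per condition, and the difference between the genotypes was not tested.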

How the results depend on the processing

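Counts of members past the threshold, of 6, changed by more than 1.5 times as follows. With a threshold of 1 they were 1 for AAI in control (4 at 0.2), 0 for AAI in hKLF6 OE (2), 1 for hKLF6 OE without AAI (3), 0 for hKLF6 OE with AAI (1), 0 for InjuredPT-A (5) and 0 for InjuredPT-B (4). With a threshold of 0.5 they were 1 for AAI in control and 0 for AAI in hKLF6 OE. A pseudocount of 0.1 gave 2 for hKLF6 OE with AAI, since G6pc then passed as lower at -0.22, and a minimum of 2 gave 1 for AAI in hKLF6 OE. PT-S1-S2 clusters alone gave 5 for AAI in hKLF6 OE and 3 for hKLF6 OE with AAI, and PT-S3 clusters alone gave 3 for InjuredPT-A. Shares of all genes are given for the main settings only. The other alternatives moved a count by at most 1. AAI in control then had 5 with a pseudocount of 0.1 and 3 after centring, without mitochondrially encoded genes and with either segment alone, hKLF6 OE without AAI had 2 with a threshold of 0.5, and InjuredPT-B had 5 after centring and 3 with a threshold of 0.5, with PT-S3 alone and against the mouse without AAI. One called value reversed, G6pc in InjuredPT-B of control with AAI, at 0.19 against PT-S3 alone. Higher thresholds pass fewer genes by construction, and the cause of the other changes was not tested. Of 264 single-gene values under the alternatives that can change them (not the thresholds or filters), 223 moved by less than the SD over the 5 clusters, 40 moved by more and 1 reversed. The ratios along the nephron moved by less than the SD over mice under each other average and without EC-1 and DCT_CNT. Pck1 between the genotypes was 1.43 and 1.21 with PT-S1-S2 alone and 0.85 and 0.68 with PT-S3 alone, without and with AAI. By Spearman's rho, 12 of the 18 genes of most similar pattern were the same. No paired analysis was possible because each condition has 1 mouse. Since neither nuclei nor counts per column are in the table, counting error could not be given, and it weighs most on low values and on small clusters.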
